A study of Mus musculus with 5 samples.

Results

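The DMRT genes encode transcription factors that share the DM domain, a zinc-binding DNA-binding fold first described in the sex-determination proteins doublesex of the fly and MAB-3 of the worm. The members examined were the DM-domain genes Dmrt1, Dmrt2, Dmrt3, Dmrta1 and Dmrta2, taken by symbol from a table of 30840 features, in which all 5 were found, once each. The family was chosen by the measured values of these same libraries: Dmrt3 and Dmrta2 had already been seen to be higher in those labelled as lacking Polycomb repressive complex 1 (PRC1). The comparison of the groups is therefore given for the members as a description, without p-values. In mammals Dmrt1 acts in the testis, where it maintains male somatic fate and germ cells, and Dmrt2 in the somites that form muscle and axial skeleton. Dmrt3 specifies a class of spinal interneurons that shape locomotion and, with Dmrta2 (also called Dmrt5), patterns the embryonic forebrain. Dmrta1 (Dmrt4) is a close relative of Dmrta2. Developmental transcription factor genes of this kind are classical targets of Polycomb repression, in which PRC1 attaches ubiquitin to histone H2A through its catalytic subunits Ring1a and Ring1b.

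The 5 RNA-seq libraries came from sorted hair follicle stem cells of mouse back skin, in a series on the H2A ubiquitin mark and the quiescence of these cells. All mice were Ring1a-/-, Ring1b flox/flox and were treated topically with 1% RU-486 on 10 consecutive days, starting at postnatal day 50. The 3 PRC1 i2KO samples also carried K15-CrePR1, an RU-486-dependent Cre recombinase driven from the keratin 15 promoter, which acts only in cells that express the transgene, and the 2 Control samples had no Cre. Control cells thus lacked Ring1a too, and the transgene differs between the groups together with the deletion. Cells were collected at postnatal day 70 by sorting for EpCAM, high α6-integrin and CD34 and against Sca1, with 50000 cells per sample. The labels do not tell whether each sample is a different mouse.

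The libraries held between 11626006 and 43307694 counts, the lowest being Control 3. All 11 hair follicle stem cell markers examined had counts in every library, summing to between 11680 and 14280 CPM (CPM, the share of a library's counts on a fixed common scale, here with TMM library sizes). Most of each sum came from Krt5 and Krt15. For 3 of the 11, Cd34, Lgr5 and Lhx2, CPM were lower throughout PRC1 i2KO than in either control. Lgr5 was at 449.5 and 470.9 CPM in Control 2 and 3 against 322.3, 315.2 and 382.3 CPM in PRC1 i2KO. Lhx2 was at 659 and 718 CPM against 508, 559 and 409 CPM. For 1 marker, Krt14, CPM were higher throughout, at 695 and 832 CPM against 1322, 1431 and 971 CPM. Of 22181 genes tested with edgeR's quasi-likelihood test at an adjusted p under 0.05, 28 were called higher in PRC1 i2KO (0.126%) and 0 lower (0%). None of the 11 markers was among the 28. At an unadjusted p under 0.05 there were 1647 higher (7.43%) and 778 lower (3.51%), and DESeq2 called 754 and 166. For the targeted gene the scales differed. Rnf2, which encodes Ring1b, was at 27.7 and 37.5 CPM in Control 2 and 3 and at 39.9, 33.1 and 36.4 CPM in PRC1 i2KO 1, 2 and 3 (log2 fold change 0.16 ± 0.25, edgeR adjusted p = 0.870), so the groups overlapped. In the deposited TPM it was at 25.1 and 24.4 in the controls against 16.8, 12.9 and 11.7, lower in each PRC1 i2KO library, as were 23.0% of tested genes on that scale. That share counts direction only, not size. The median log2 difference of all tested genes was -0.19 on log2(TPM + 1) and -0.33 on log2(TPM + 0.1). In each PRC1 i2KO library Rnf2 lay further below both controls than these medians. The labels do not say which exons are flanked by loxP, so values for the whole gene do not check the deletion, and PRC1 i2KO is used throughout as the name the libraries carry. In bulk RNA, more cells expressing a gene and more RNA per cell cannot be told apart.

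RefSeq promoter windows of assembly GRCm38.p6 were found for 4 of the 5 members, all but Dmrt1. They are shown because they set the genes that had no control count beside the member that was expressed in every library, and the build is not that named for the deposited values (mm39). Each runs 5′ to 3′ on the plus strand up to the base before the annotated start, with every CG dinucleotide, the target of DNA methylation and a hallmark of Polycomb-bound promoters, in capitals. The window of Dmrta2 (chr4:109977775-109978024) and that of Dmrt2 (chr19:25672161-25672410) are 250 bases long. The stretch of Dmrt3 (chr19:25610355-25610536) is 182 bases long, as it was cut after the last base annotated as untranslated region of a transcript. Noncoding genes were not used for such cuts. As these start 157 and 239 bases from Dmrt2 and Dmrta2 on the opposite strand, the windows shown whole may hold transcribed bases. The window of Dmrta1 (chr4:89687948-89688197), again 250 bases, is the contrasting member with counts in both controls.
Dmrta2: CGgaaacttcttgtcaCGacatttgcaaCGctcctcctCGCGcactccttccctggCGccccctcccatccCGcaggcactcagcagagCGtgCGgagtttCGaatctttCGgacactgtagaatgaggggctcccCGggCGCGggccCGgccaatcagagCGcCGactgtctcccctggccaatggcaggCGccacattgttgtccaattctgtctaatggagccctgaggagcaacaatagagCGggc
Dmrt2: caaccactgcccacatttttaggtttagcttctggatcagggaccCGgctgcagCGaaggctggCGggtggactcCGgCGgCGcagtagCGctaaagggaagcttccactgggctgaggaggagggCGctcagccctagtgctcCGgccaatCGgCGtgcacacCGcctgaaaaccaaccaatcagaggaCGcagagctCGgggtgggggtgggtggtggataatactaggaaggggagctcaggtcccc
Dmrt3: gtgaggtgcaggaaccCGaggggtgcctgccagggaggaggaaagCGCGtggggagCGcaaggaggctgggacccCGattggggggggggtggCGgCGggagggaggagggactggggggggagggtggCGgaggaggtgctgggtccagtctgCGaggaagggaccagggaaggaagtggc
Dmrta1: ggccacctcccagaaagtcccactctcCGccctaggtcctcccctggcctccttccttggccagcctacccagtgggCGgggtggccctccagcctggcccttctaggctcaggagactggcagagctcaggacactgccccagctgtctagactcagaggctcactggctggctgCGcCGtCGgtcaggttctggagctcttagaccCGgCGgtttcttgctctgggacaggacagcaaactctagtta

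The members without a control count had more CG dinucleotides before their start than Dmrta1. Over the full 250 bases before the RefSeq start, CG occurred 19 times at Dmrta2, 14 times at Dmrt2 and 13 times at Dmrt3, against 7 times at Dmrta1. The 182 bases shown for Dmrt3 hold 9 of its 13, and the values below rest on its full window. Among all 32851 RefSeq promoter windows of that length the median was 6. At least as many as at Dmrta2 were present in 19.7% of the windows, as at Dmrt2 in 29.4%, as at Dmrt3 in 31.5% and as at Dmrta1 in 46.3%. All 4 windows thus lay above the median, and none stood at the far end of the distribution. The ratio of observed to expected CG was 0.812 at Dmrta2, 0.587 at Dmrt2, 0.516 at Dmrt3 and 0.281 at Dmrta1, with a median of 0.374 over all windows. The Dmrt3 window had the highest GC content of the 4, at 72.4%, a value reached by 6.45% of all windows. The letters CCAAT, searched on both strands (as CCAAT and ATTGG), occurred 3 times at Dmrta2, 2 times at Dmrt2, once at Dmrt3 (on the minus strand) and not at Dmrta1. At least 1 match was present in 33.9% of all windows, at least 2 in 10.1% and at least 3 in 2.79%. These counts describe the letters of the windows and show no binding.

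**Figure D1:**
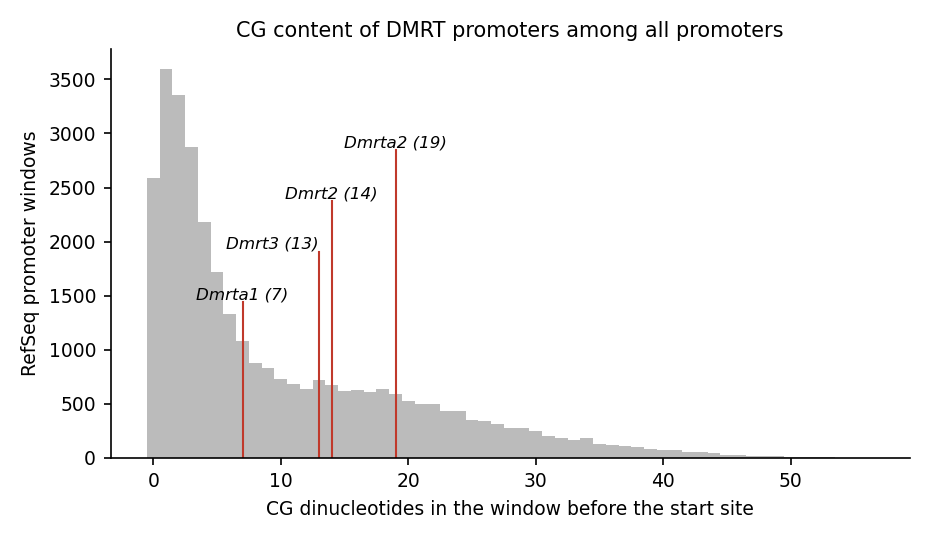
Number of RefSeq promoter windows (vertical axis) by their count of CG dinucleotides in the 250 bases before the start (horizontal axis), with red lines at the 4 DMRT members that have a window. Dmrta2 (19), Dmrt2 (14) and Dmrt3 (13) lie to the right of Dmrta1 (7), and all 4 lie above the median of 6.

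Dmrt3 (ENSMUSG00000042372.4), the spinal interneuron factor, was the member with the highest level in PRC1 i2KO. It had no count in either control, and 308, 495 and 246 counts in PRC1 i2KO 1, 2 and 3. On the CPM scale these were levels of 14.1, 11.2 and 7.78, with a mean of 11.0 ± 3.17 CPM (SD, n = 3). Every PRC1 i2KO library was far above both controls, and the libraries of that group also differed among themselves beyond counting error. The exact Poisson 95% interval of PRC1 i2KO 3 (6.84 to 8.82 CPM) lay below that of PRC1 i2KO 2 (10.2 to 12.2 CPM), which lay below that of PRC1 i2KO 1 (12.6 to 15.8 CPM). Such intervals cover counting error only. Set against a floor of 3 counts over both controls (0.0485 CPM), the pooled PRC1 i2KO level was at least 221-fold higher, and at least 45.2-fold when the deeper Control 2 was left out and the floor rested on Control 3.

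Dmrta2 (ENSMUSG00000047143.3), the forebrain patterning factor, was the next highest member. It had no count in either control and 122, 303 and 220 counts in PRC1 i2KO 1, 2 and 3, or 5.59, 6.84 and 6.96 CPM. The mean was 6.46 ± 0.757 CPM (SD, n = 3). The pooled level, 6.60 CPM, was at least 136-fold higher than the control floor (27.8-fold without Control 2). The 3 libraries were alike here, with overlapping counting intervals, and in CPM the library with the most Dmrt3, PRC1 i2KO 1, had the least Dmrta2.

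Dmrt2 (ENSMUSG00000048138.9), the somite factor, followed the same pattern at a lower level. It had no count in either control and 40, 89 and 76 counts in PRC1 i2KO 1, 2 and 3, or 1.83, 2.01 and 2.40 CPM, with a mean of 2.08 ± 0.293 CPM (SD, n = 3). The pooled level was at least 43.2-fold higher than the control floor (8.83-fold without Control 2). As with Dmrta2, the counting intervals of the 3 PRC1 i2KO libraries overlapped.

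Dmrt1 (ENSMUSG00000024837.15), the testis factor, did not appear in every PRC1 i2KO library. It had no count in either control and none in PRC1 i2KO 1, 61 counts in PRC1 i2KO 2 (1.38 CPM) and 10 in PRC1 i2KO 3 (0.316 CPM). The groups overlapped, since PRC1 i2KO 1 was at 0 like the controls, with an upper counting limit of 0.169 CPM. The interval of PRC1 i2KO 2 (1.05 to 1.77 CPM) lay above that limit and above the interval of PRC1 i2KO 3 (0.152 to 0.582 CPM). In Control 3, the shallowest library, a count of 0 allowed up to 0.293 CPM by the same interval, so a level like that of PRC1 i2KO 3 was not detectable as different from it at this depth. Dmrt1 was the only member that did not pass edgeR's filter on low counts.

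Dmrta1 (ENSMUSG00000043753.2) was the only member with counts in every library, and its CPM did not separate the groups. It had 70 and 29 rounded counts in Control 2 and 3 and 39, 45 and 46 in PRC1 i2KO 1, 2 and 3. In CPM the levels were 1.42 and 2.30 in the controls and 1.79, 1.02 and 1.46 in PRC1 i2KO, and the groups overlapped. The log2 fold change of PRC1 i2KO over Control was -0.39 ± 0.77 (SE), and it was 0.002 without Control 3. In the deposited TPM, which are scaled for transcript length, the values were 0.430 and 0.515 in the controls and 0.344, 0.247 and 0.298 in PRC1 i2KO, so that the groups did not overlap. In TPM, 23.0% of the tested genes were likewise lower in each PRC1 i2KO library than in either control. On the log2(TPM + 1) scale the median of all tested genes was shifted by -0.19, and the difference of Dmrta1 there was -0.18. On the log2(TPM + 0.1) scale, which compresses low values less, the median was -0.33 and Dmrta1 was at -0.53. The deposited counts of Dmrta1 were not whole numbers in any library, as happens where estimated counts divide reads between features, whereas those of the other members were whole in every library (within 0.001).

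**Figure D2:**
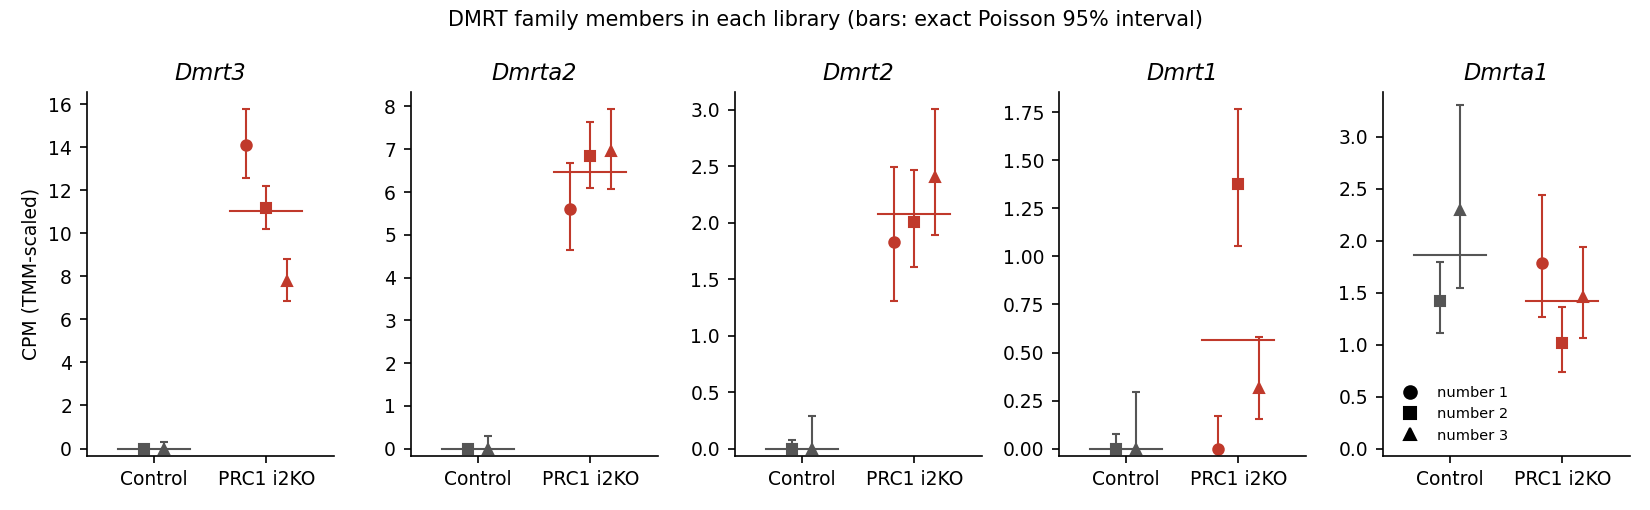
CPM of each DMRT member (vertical axes, a separate linear scale per gene) in the Control (grey) and PRC1 i2KO (red) libraries, with the replicate number as the symbol, exact Poisson 95% intervals as bars and group means as horizontal lines. Dmrt3, Dmrta2 and Dmrt2 are at 0 in both controls and present in all 3 PRC1 i2KO libraries, Dmrt1 is present in 2 of these, and Dmrta1 overlaps between the groups.

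By edgeR, 2 of the 5 members were among the genes called higher, Dmrt3 and Dmrta2, where 0.126% of all tested genes were called. As the family was chosen for these calls, nothing is read from that count. For Dmrt3, Dmrta2 and Dmrt2 the lowest PRC1 i2KO library exceeded the highest control, as it did for 14.6% of tested genes. The number of members called was 0 without Control 2, without Control 3 and without PRC1 i2KO 1, 1 (Dmrt3) without PRC1 i2KO 3 and 2 without PRC1 i2KO 2. DESeq2, which called 3.57% of the genes it adjusted as higher, called Dmrt2 as well, while limma-voom and limma on log2(TPM + 1) called no member.

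The order of the members in PRC1 i2KO was compared in TPM, since only values per length can be set beside each other between genes. Dmrt3 was at 4.72, 4.79 and 2.79 TPM in PRC1 i2KO 1, 2 and 3, with a mean of 4.10 ± 1.14 TPM (SD, n = 3). Dmrta2 was at 1.51, 2.37 and 2.01 TPM, with a mean of 1.96 ± 0.432 TPM. Dmrt2 was at 0.624, 0.879 and 0.879 TPM, with a mean of 0.794 ± 0.147 TPM. Dmrt3, Dmrta2, Dmrt2 and Dmrta1 followed each other in that order in all 3 libraries, without overlap between neighbours. The last step was not separated, since Dmrt1 (0, 0.604 and 0.116 TPM, mean 0.240 ± 0.321) overlapped Dmrta1 (mean 0.297 ± 0.0485 TPM). In the controls Dmrta1 was the sole member listed above 0. The TPM ratio of Dmrta2 to Dmrt2 was similar in the 3 libraries, at 2.42, 2.69 and 2.29, while that of Dmrt3 to Dmrta2 lay between 1.39 in PRC1 i2KO 3 and 3.13 in PRC1 i2KO 1. The TPM level of Dmrt3 was above that of 65.5% of the features listed above 0 in PRC1 i2KO, that of Dmrta2 above 55.4% and that of Dmrt2 above 43.2%, so all 3 stood in the middle of the range of expressed features.

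**Figure D3:**
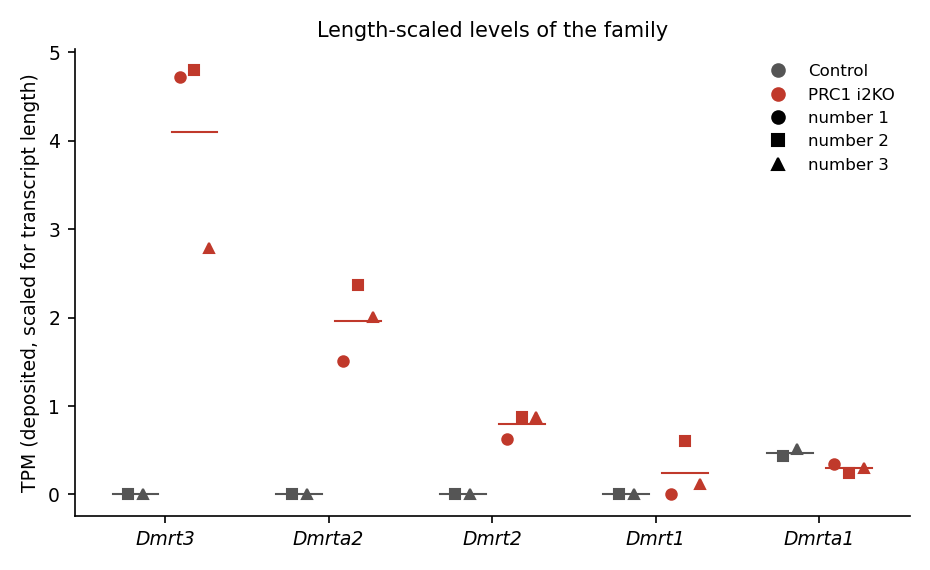
Deposited TPM of the 5 members (vertical axis, linear) in Control (grey) and PRC1 i2KO (red) libraries, with the replicate number as the symbol and group means as lines. In PRC1 i2KO the level steps down from Dmrt3 to Dmrta2 to Dmrt2, while Dmrt1 and Dmrta1 overlap at the bottom.

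Among features with no control count and a count in every PRC1 i2KO library, Dmrt3 and Dmrta2 had the highest CPM in PRC1 i2KO. CPM are not scaled for transcript length, so these ranks partly reflect length, and the features were not ranked in TPM. Of 30633 features with any count, 236 (0.770%) had no count in either control and at least 1 in every PRC1 i2KO library, against 241 (0.787%) with counts in both controls and none in any PRC1 i2KO library. Of the 236 features, 125 were protein-coding, and their median level was 0.345 CPM. Ranked by mean CPM in PRC1 i2KO, Dmrt3 was the highest, Dmrta2 was number 2, and Dmrt2 was number 22, behind genes such as Shox2 (5.41 CPM) and Zic2 (5.04 CPM). Both places were the same when the features were ranked by their lowest PRC1 i2KO library (7.78 CPM for Dmrt3 and 5.59 CPM for Dmrta2), and Dmrt2 was then number 9. Their variation between libraries was set beside that of the other features. Among the 48 of these features with a mean of at least 1 CPM, the coefficient of variation over the PRC1 i2KO libraries had a median of 78.2%. It was 11.7% for Dmrta2, the lowest of the 48, 14.1% for Dmrt2, with 1 feature below it, and 28.8% for Dmrt3, with 6 below it. Low variation was not particular to the members or to this class. Of the 5 genes outside the family nearest to Dmrta2 (named below), Tbx3 varied least and Sim2 most. They averaged 6.70 ± 0.365 CPM and 8.06 ± 2.71 CPM in PRC1 i2KO (SD, n = 3), beside 6.46 ± 0.757 CPM for Dmrta2. The ranks of the members describe the contrast for which the family was chosen and were not tested. They also turn on single control counts. Sim2 and Pitx1, each with 1 count in Control 2 and 0 in Control 3, averaged 8.06 and 7.45 CPM in PRC1 i2KO. Hoxa13, with 1 count in each control, averaged 9.92 CPM. These genes are left out of the class, though above Dmrta2 (6.46 CPM).

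**Figure D4:**
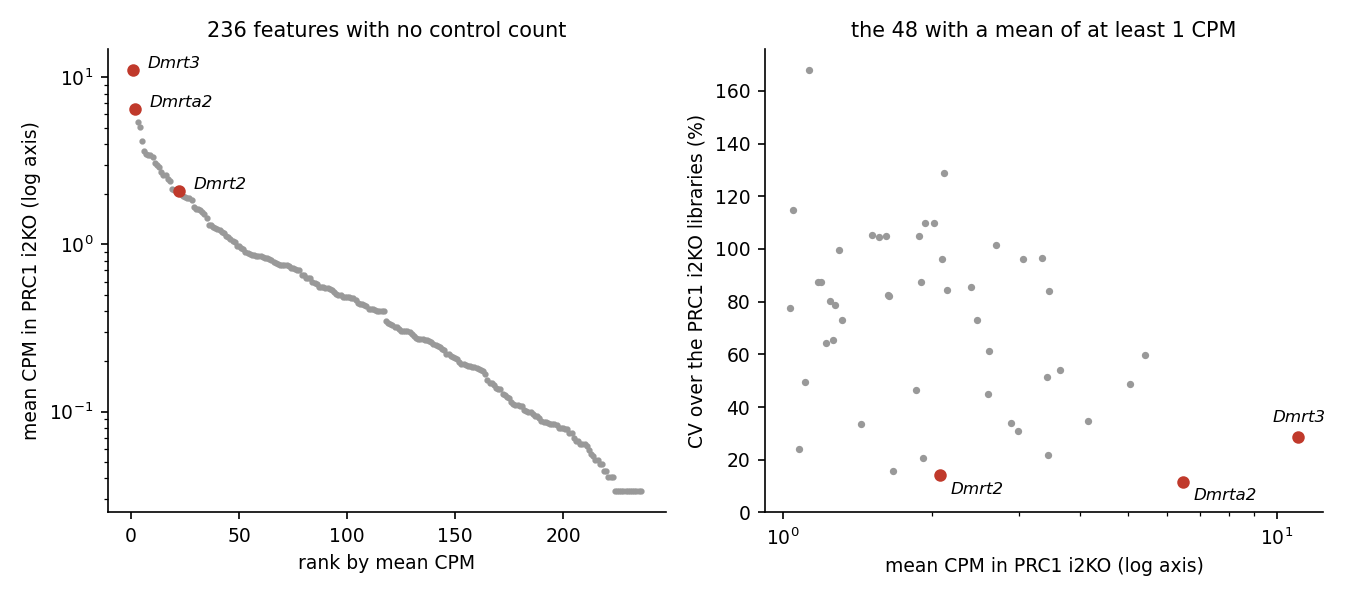
Left, mean CPM in PRC1 i2KO (log axis) against rank for the 236 features without a count in either control and with counts in every PRC1 i2KO library. Right, their coefficient of variation over the PRC1 i2KO libraries (percent) against mean CPM (log axis) for the 48 with at least 1 CPM. Dmrt3, Dmrta2 and Dmrt2 (red) are at ranks 1, 2 and 22 by CPM and among the least variable of these 48.

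The genes whose values were most like those of Dmrt3 and Dmrta2 were found over all tested genes. Likeness was the root mean square difference in log2(CPM + 0.5) over the 5 libraries, members left out, with smaller values meaning closer levels. Nearest to Dmrt3 were the transcription factor gene Sim2 (0.38), the synaptic gene Elfn1 (0.43), the zinc-finger factor gene Mecom (0.43), the hindlimb homeobox gene Pitx1 (0.43) and the posterior homeobox gene Hoxa13 (0.53). Nearest to Dmrta2 were Tox2, an HMG-box factor gene (0.24), Pitx1 (0.28), Edn2, which encodes an endothelin (0.35), the T-box gene Tbx3 (0.37) and Sim2 (0.42). Pitx1 and Sim2 appeared for both, at 6.77 CPM and 6.58 CPM in PRC1 i2KO 3. With 5 libraries in 2 groups, any gene low in control and at a like level in PRC1 i2KO comes close by this measure.

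None of the tested genes next to the DMRT loci was called by edgeR, and most overlapped between the groups. Dmrt1, Dmrt3 and Dmrt2 lie side by side in that order on chromosome 19, while Dmrta1 and Dmrta2 lie apart on chromosome 4 (gene order from RefSeq, GRCm38.p6). Of the 18 nearest protein-coding genes, 3 on each side of each locus, 11 were in the table and all were tested. By edgeR 0 of the 11 were called, against 1 at an unadjusted p under 0.05, 1 by DESeq2 and 0 by limma-voom, with a median log2 fold change of -0.08. In 2 of the 11, Cdkn2b and Bend5, every PRC1 i2KO library lay above the controls, and in 1, Smarca2, below them, where 14.6% and 15.3% of all tested genes lay so. Beside the chromosome 19 cluster, the cytoskeletal regulator gene Kank1 averaged 257 CPM in control against 224 CPM in PRC1 i2KO (log2 fold change -0.20 ± 0.25, edgeR adjusted p = 0.827). On the other side, Smarca2, which encodes an ATPase of SWI/SNF chromatin remodelling complexes, was at 649 and 521 CPM (-0.32 ± 0.19, edgeR adjusted p = 0.589). Both flanking genes were thus expressed at high levels in both groups, while the DMRT genes between them had no control count. Next to Dmrta2, the ubiquitin-pathway gene Faf1 was at 31.2 and 29.4 CPM (-0.08 ± 0.27, edgeR adjusted p = 0.948). Beside Dmrta1, the cell cycle inhibitor gene Cdkn2b averaged 0.571 CPM in control against 3.14 CPM in PRC1 i2KO (2.47 ± 0.85, edgeR adjusted p = 0.332). Its counts were 25 and 8 in the controls and 32, 171 and 129 in PRC1 i2KO, while Dmrta1 itself overlapped between the groups. The other 7 neighbours (Dock8, Vldlr, Mtap, Elavl2, Cdkn2c, Agbl4 and Bend5) had log2 fold changes between -0.99 and 1.30, with edgeR adjusted p between 0.587 and 0.972.

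**Figure D5:**
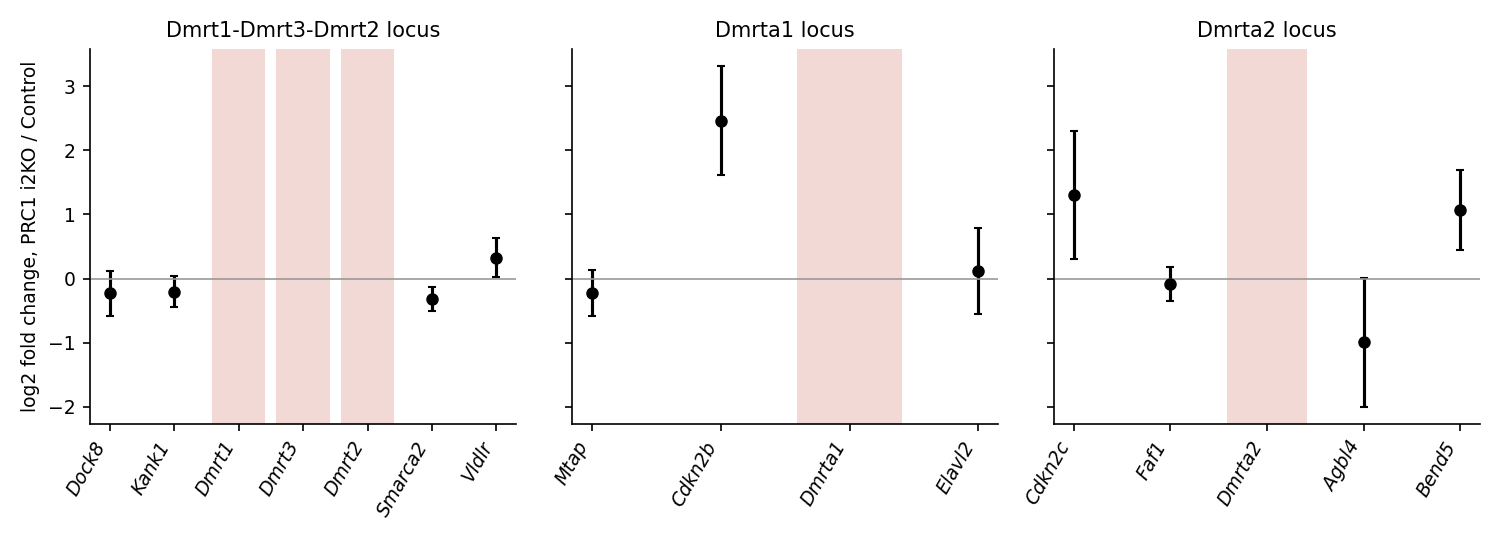
Log2 fold change of PRC1 i2KO over Control (vertical axis; bars, standard error) of the tested protein-coding neighbours of the 3 DMRT loci, in gene order along the chromosome with equal spacing. Shaded positions mark the DMRT genes themselves, whose values are given in the text. The neighbours of the chromosome 19 cluster lie between -0.32 and 0.32, and Cdkn2b beside Dmrta1 is at 2.47.

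Genes known from the tissues in which DMRT factors act were examined next, in 4 lists of 69 genes in all, of which 55 were in the table and 43 tested. By edgeR 1 was called higher and 0 lower, against 17 and 4 at an unadjusted p under 0.05, 13 and 0 by DESeq2 and 0 and 0 by limma-voom. The number called higher was 0 when Control 2, Control 3, PRC1 i2KO 1 or PRC1 i2KO 2 was left out. Across the 43 genes the median log2 fold change was 1.33, where that of all tested genes was 0.00. Of these, 4 had no control count and could enter the test only through PRC1 i2KO. Among the 21 with a control mean of at least 1 CPM the median was -0.02, and it was -0.02 for all 16919 such genes. Over all genes, 0.126% were called higher by edgeR and 3.57% by DESeq2, and 7.43% were higher at an unadjusted p under 0.05.

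Factors of spinal interneurons, listed because Dmrt3 specifies a class of them, included the gene called higher. Of 14 listed, 10 were in the table and 6 were tested, with 1 higher and 0 lower (unadjusted, 5 and 0; DESeq2, 5 and 0). Pax2, a paired-box factor of spinal interneurons and of the kidney, rose from 0.452 CPM in control to 14.2 CPM in PRC1 i2KO (log2 fold change 4.93 ± 0.62, edgeR adjusted p = 0.0253). Its counts were 25 and 5 in the controls and 311, 884 and 269 in PRC1 i2KO. Evx1, a homeobox gene of ventral interneurons, had no control count and 118, 91 and 89 counts in PRC1 i2KO, at least 62.9-fold over the control floor (edgeR adjusted p = 0.0867). En1, another homeobox gene of the ventral spinal cord, had 1 count in each control and 275, 123 and 114 in PRC1 i2KO, 162 times the control level (95% counting interval 44.6 to 1341), edgeR adjusted p = 0.0890. Evx1 and En1 were thus higher in every PRC1 i2KO library without passing the threshold.

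Forebrain patterning genes, which act in the tissue of Dmrta2 and Dmrt3, had no member past the threshold. Of 20 listed, 14 were in the table and tested (unadjusted, 4 higher and 1 lower; DESeq2, 3 and 0), with a median log2 fold change of 0.75. Of these, 2 had no control count, and the median was -0.25 over the 5 with a control mean of at least 1 CPM. Emx2, the cortical homeobox gene, had no control count and 88, 136 and 3 counts in PRC1 i2KO 1, 2 and 3 (edgeR adjusted p = 0.234), so it was nearly at 0 in the library in which Dmrta2 was at 6.96 CPM. Hes1, a Notch target, averaged 16.6 CPM in control against 41.8 CPM in PRC1 i2KO (1.33 ± 0.31, edgeR adjusted p = 0.177). Otx1, a head homeobox gene, was at 0.248 and 4.69 CPM (4.54 ± 1.29, edgeR adjusted p = 0.248).

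Genes of gonadal sex determination, the process in which Dmrt1 is best known, moved in no single direction. Of 20 listed, 17 were in the table and 14 tested, with 0 called (unadjusted, 3 higher and 3 lower; DESeq2, 1 and 0) and a median log2 fold change of 0.12, which was -0.40 over the 9 with a control mean of at least 1 CPM. Lhx9, a gonad and limb homeobox gene, averaged 0.389 CPM in control against 4.29 CPM in PRC1 i2KO (3.53 ± 1.07, edgeR adjusted p = 0.273). Dhh, the Hedgehog ligand of Sertoli and Schwann cells, was at 1.94 and 0.202 CPM (-3.25 ± 1.07, edgeR adjusted p = 0.314). Rspo1, a WNT-enhancing ligand of ovary development, was at 0.899 and 4.14 CPM (2.15 ± 0.77, edgeR adjusted p = 0.352). Sox9, a testis factor that is also required in hair follicle stem cells, was at 516 and 525 CPM (0.03 ± 0.16, edgeR adjusted p = 0.974).

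Somite and muscle precursor factors, which share the tissue of Dmrt2, also had 0 calls. Of 15 listed, 14 were in the table and 9 tested (unadjusted, 5 higher and 0 lower; DESeq2, 4 and 0), with a median log2 fold change of 1.80, which was 0.93 over the 6 with a control mean of at least 1 CPM. Foxc2, a forkhead factor gene of mesoderm, averaged 0.453 CPM in control against 7.11 CPM in PRC1 i2KO (3.90 ± 0.75, edgeR adjusted p = 0.134). Pax3 was at 1.34 and 9.50 CPM (2.78 ± 0.76, edgeR adjusted p = 0.235). The myogenic gene Myf5 had 2 counts in Control 2 and none in the other libraries, so the presence of Dmrt2 in PRC1 i2KO was not accompanied by that muscle factor at this depth.

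Markers of cell types other than the sorted one were read beside these values. The 11 fibroblast and dermal papilla markers in the table summed to 27.1 and 29.5 CPM in the controls and to between 76.9 and 84.8 CPM in PRC1 i2KO. In 5 of the 11, Col1a1, Pdgfra, Sox2, Thy1 and Vim, every PRC1 i2KO library lay above both controls. Col1a1, a collagen gene, had 3.41 and 2.94 CPM in control against 11.2, 19.7 and 7.88 CPM, and Vim had 0.0203 and 0.555 CPM against 5.68, 1.74 and 6.42 CPM. Among the other fibroblast markers, Col1a2 had 16.8 and 15.7 CPM in control against 13.3, 20.3 and 20.8 CPM. Crabp1 had 4.02 and 1.59 CPM against 15.2, 9.50 and 3.07 CPM, and both overlapped between the groups. Dcn was at 3.13 CPM in PRC1 i2KO 3 and at 0.162 CPM or below elsewhere. Col3a1 had 12 counts in PRC1 i2KO 2 and none elsewhere, and Lum and Corin were at 0.159 CPM or below in every library. Pdgfra reached 2.22 and 3.37 CPM in control against 16.0 to 32.5 CPM in PRC1 i2KO. The 5 Merkel cell markers summed to 2.03 and 2.06 CPM in the controls and to between 16.5 and 23.3 CPM in PRC1 i2KO, most of it from the mechanosensory channel gene Piezo2. In 3 of the 5, Piezo2, Krt8 and Isl1, every PRC1 i2KO library lay above both controls. Krt8 had 1 count in each control and 73, 47 and 60 in PRC1 i2KO, Isl1 had none and 19, 38 and 101, and Krt20 had 3 counts in PRC1 i2KO 2 and none elsewhere. The 11 melanocyte and Schwann cell markers summed to 229 and 269 CPM in the controls and to between 167 and 207 CPM in PRC1 i2KO, with Sox10 at 0.917 CPM or below. Most of that sum came from Mitf (mean 174 CPM in control, 100 CPM in PRC1 i2KO) and Erbb3 (54.4 and 58.9 CPM). In 3 of the 11, Erbb3, Mbp and Ngfr, every PRC1 i2KO library lay above both controls, and in 1, Mitf, below them. The 6 immune markers summed to 5.87 and 13.4 CPM in the controls and to between 14.3 and 23.0 CPM in PRC1 i2KO. In 1 of the 6, Cd207, every PRC1 i2KO library lay above both controls, and in 0 below them. H2-Ab1 averaged 1.57 CPM in control against 8.48 CPM in PRC1 i2KO, with overlap. The leukocyte marker Ptprc averaged 3.56 and 2.26 CPM, and Itgam 2.13 and 1.97 CPM. The 7 vascular and muscle markers summed to 15.6 and 20.7 CPM and to between 16.5 and 26.7 CPM, with overlap between the groups. By edgeR no gene of these lists was called in either direction. The sums of fibroblast, Merkel cell and immune markers were thus higher in the same libraries as Dmrt3, Dmrta2 and Dmrt2, and their part in the DMRT values was not tested. Of the sort markers, Cd34 averaged 402 CPM in control against 252 CPM in PRC1 i2KO (edgeR adjusted p = 0.422), and Ly6a, which encodes the Sca1 antigen used for exclusion, at 1.21 and 4.28 CPM (edgeR adjusted p = 0.398).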

How the data were processed

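The deposited table gives an expected count and a TPM value per feature and library. Tools listed in the submitters' processing notes, without their roles, are DESeq2 1.38.2, RSEM 1.3.3 and STAR 2.7.9a, with the build mm39. No source used here states whether strand was used in counting. The deposited expected counts (51.7% not whole within 0.001) were rounded. The deposited TPM are scaled by the authors for transcript length and sum to between 999962.6 and 999977.5 per library. Columns were matched to samples by title.

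Features were filtered (filterByExpr) and tested with edgeR 4.0.16 in R 4.3.3 (TMM, quasi-likelihood, group as the only term, Benjamini-Hochberg over 22181 genes). CPM use TMM-scaled sizes, and 1 count equalled between 0.0203 and 0.0793 CPM. Fold changes are PRC1 i2KO over Control. A gene with no control count is set against 3 counts over both controls (0.0485 CPM) using pooled counts, and one with 1 to 3 counts gets a ratio with an exact 95% interval. DESeq2 1.42.0 and limma 3.58.1 were alternatives. The procedure was tested on simulated data. Since the labels name no separate animals, p-values reflect only sample-to-sample spread, possibly technical.

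The members, gene lists and tests were chosen with earlier results of these data known. Named were all members, the 3 nearest protein-coding genes per side of each locus, genes called or with the 3 smallest p per list, and the 5 genes nearest to Dmrt3 and to Dmrta2. One gene that this rule names is not reported here. In GENCODE M21 (GRCm38), 0 other genes overlap any member, but RefSeq's Dmrta2os overlaps Dmrta2.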

Additional observations from a re-analysis of the deposited data

How the results depend on the processing

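The calls depended on tool and libraries. Genes called higher (28) and lower (0) were 754 and 166 with DESeq2, 140 and 12 with edgeR without a filter, 4 and 0 with limma-voom, 2 and 1 with limma on log2(TPM + 1), and 7 and 5 on log2(TPM + 0.1). These limma fits used an intensity trend. Without it, a setting added after both forms had been seen, they gave 2 and 1 on log2(TPM + 1), with 0 members and 0 associated genes, and 13 and 12 on log2(TPM + 0.1), with 2 members (Dmrt3 and Dmrta2) and 0 associated genes. With single libraries left out they ranged from 4 to 39 and from 0 to 4. Members called (2) were 3 with DESeq2 and, without a filter, 3, and 0 with limma-voom, with limma on log2(TPM + 1) and on log2(TPM + 0.1), and ranged from 0 to 2 with a library left out. Associated genes called higher (1) were 13 with DESeq2, 5 without a filter, 0 with limma-voom and 0 with either TPM setting, and ranged from 0 to 1 with a library left out. Neighbours called (0) were 1 with DESeq2. With DESeq2's size factors in edgeR, 30 genes and 2 members were called higher. The causes were not tested.

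Whether the replicate numbers of the titles mark a pairing of the samples could not be decided from correlations of deviations from the group mean. As there were only 2 controls, their deviations are exact opposites. The correlations with either control are therefore those with the other, with the sign reversed. Same-numbered samples had correlations of 0.083 and 0.054, the highest among the combinations of control and PRC1 i2KO samples. With a replicate block by title, 140 genes were called higher and 25 lower, 2 members, 0 neighbours and 4 associated genes, and with a replicate block by description, 10 and 0, with 0 members, 0 neighbours and 0 associated genes.

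Depth limits what 0 counts show. The mean CPM of Dmrt3 in PRC1 i2KO was 11.1 with DESeq2's size factors and, in a setting chosen after seeing the data, 10.2 with unscaled library sizes. Its least fold over the control floor was 45.2 without Control 2, the deeper control, where it was 221 with both.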

Other observations

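The following features were chosen after their values were seen. Of 6 further DM-domain genes listed, 2 were in the table, and neither passed the filter on low counts. Dmrtc2 (Dmrt7), which acts in male meiosis, had 19 counts in PRC1 i2KO 1 and none in the other 4 libraries. Dmrtc1a had 59 counts in Control 2, 9 in PRC1 i2KO 2 and none in the other 3 libraries. Each therefore appeared in some libraries only, unlike Dmrt3, Dmrta2 and Dmrt2.

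A noncoding gene starts close to Dmrt2 and to Dmrta2 on the opposite strand, 157 and 239 bases away by GENCODE M21. Dmrta2os, beside Dmrta2, had no count in either control, 56 counts in PRC1 i2KO 1, none in PRC1 i2KO 2 and 10 in PRC1 i2KO 3. Dmrta2 itself had 122, 303 and 220 counts there, so the library with the most Dmrta2 counts had no count of its neighbour. The gene 2610016A17Rik, beside Dmrt2, had 10 and 0 rounded counts in Control 2 and 3 and 9, 26 and 2 in PRC1 i2KO, and thus was counted in a control library in which Dmrt2 was not. Without strand, reads of a gene and of an antisense partner cannot be told apart where they share bases.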
